A study of Mus musculus with 9 samples.

Results

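The genes described here encode myosin light chains and the kinases that phosphorylate them. They are the alkali (essential) light chains Myl1, Myl3, Myl4, Myl6 and Myl6b, the regulatory light chains Mylpf and Myl2, and the kinases Mylk2 and Mylk4. They were taken by symbol, which gave 9 of the 55471 gene rows of the count matrix, and all 9 passed the filter on low counts. RNA was sequenced from the gastrocnemius, a calf muscle, of 5 *Shank3Δ11(−/−)* and 4 *Shank3(+/+)* mice on the C57BL/6 background at postnatal day 0 to 1, with 1 library per mouse. The *Shank3Δ11(−/−)* mice came from heterozygous matings and carry a homozygous deletion of exon 11 of Shank3, a postsynaptic scaffold gene, and the mice are called KO1 to KO5 and WT1 to WT4. A count over a whole gene includes reads outside exon 11, so the Shank3 count does not check the deletion. The comparison answers whether light chain and kinase expression differed between the genotypes in newborn muscle.

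A sarcomeric myosin molecule is built from a pair of heavy chains. The neck of each holds an alkali and a regulatory light chain, which stiffen the lever arm and set the speed and calcium sensitivity of contraction. Light chains exist in embryonic, slow and fast forms, and rodent muscle exchanges the embryonic forms for adult slow and fast forms around and after birth. Calcium-activated calmodulin switches on the skeletal muscle kinase, which phosphorylates the regulatory chain and raises force at a given calcium level.

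Library totals ranged from 26444372 (KO5) to 40471957 counts (KO4). The study left KO2 and KO4 out for too few reads, although KO4 has the highest total in the table. The genotypes were therefore compared in 7 mice (KO1, KO3 and KO5 against the 4 *Shank3(+/+)* mice) and in all 9. Levels are counts scaled to library size (CPM) after TMM normalization. The skeletal muscle markers (Acta1, Ckm and 8 others) summed to 56266 to 64609 CPM, so the labelled tissue was present in each library. Smooth muscle genes summed to 701 to 845 CPM, fibroblast genes to 15044 to 31213, endothelial genes to 509 to 710.3, leukocyte genes to 55.3 to 91.4 and keratinocyte genes to 12.8 to 59.1 CPM. Some libraries stood apart. Adipocyte markers summed to 1129 CPM in KO5 and to 186 to 403 CPM in the other mice, and Schwann cell markers to 412 CPM in KO5 and 94.3 to 199 CPM in the others. Erythroid genes summed to 5779.7 CPM in KO1 against 1224 to 2195 CPM elsewhere, and cartilage genes to 232 CPM in KO4 against 39.7 to 75.8 CPM elsewhere. Y-linked genes were high (190.1 to 248 CPM) in KO1, KO2, KO4, WT1 and WT2 and at most 0.423 CPM in the other mice, and Xist was at 3.23 CPM in KO4 but at most 0.219 CPM in the other mice with high Y-linked genes.

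The upstream sequences of 4 members are shown because these genes form the pairs whose levels varied together most closely over the mice, Myl1 with Mylpf and Myl3 with Myl6b, as described below the levels. Each is the 250 bases before the RefSeq start (GRCm38.p6), 5′ to 3′ on the gene's own strand, with capitals at matches to an E-box (CANNTG), a TATA box (TATAAA on either strand), a MEF2 box or a CArG box.
Myl1, chr1:66945057-66945306, minus strand: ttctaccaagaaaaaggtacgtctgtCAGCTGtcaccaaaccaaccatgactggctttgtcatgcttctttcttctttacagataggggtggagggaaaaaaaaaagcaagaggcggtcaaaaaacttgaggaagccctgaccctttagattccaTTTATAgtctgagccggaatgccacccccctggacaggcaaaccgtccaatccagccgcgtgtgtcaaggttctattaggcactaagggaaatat
Mylpf, chr7:127211358-127211607, plus strand: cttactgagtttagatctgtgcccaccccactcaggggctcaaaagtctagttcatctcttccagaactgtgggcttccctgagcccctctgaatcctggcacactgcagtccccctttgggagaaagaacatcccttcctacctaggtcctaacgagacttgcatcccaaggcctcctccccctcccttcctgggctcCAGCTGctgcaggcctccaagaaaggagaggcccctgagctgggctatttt
Myl3, chr9:110763428-110763677, plus strand: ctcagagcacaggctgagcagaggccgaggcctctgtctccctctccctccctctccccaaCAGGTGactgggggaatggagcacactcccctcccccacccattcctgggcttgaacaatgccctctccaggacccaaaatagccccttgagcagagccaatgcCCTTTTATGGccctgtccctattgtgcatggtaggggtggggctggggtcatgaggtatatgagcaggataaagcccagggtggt
Myl6b, chr10:128498686-128498935, minus strand: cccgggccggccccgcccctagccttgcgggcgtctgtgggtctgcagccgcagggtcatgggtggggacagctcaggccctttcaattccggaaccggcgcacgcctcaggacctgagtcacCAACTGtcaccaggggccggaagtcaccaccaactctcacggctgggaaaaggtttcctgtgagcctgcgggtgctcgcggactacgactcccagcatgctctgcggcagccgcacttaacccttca
Each of the 4 sequences held 1 E-box, the element read by myogenic bHLH factors. Of all 32851 RefSeq upstream sequences of this length, 66.2% held at least 1, so an E-box was common and did not mark these genes. The Myl1 sequence also held TATAAA on the reverse strand, with its first base 95 bases before the start, a match found in 12.4% of all sequences. The Myl3 sequence held a CArG box, the element of serum response factor, 85 bases before the start, a match found in 1.47% of all. None of the 4 held a MEF2 box, which was in 2.92% of all and in the Mylk4 sequence at position -103. The RefSeq starts of Myl3 and Mylpf lie 21817 and 2718 bases inside the gene spans of GENCODE M21, whose outermost start can belong to another transcript. Mylk2 had no entry in the RefSeq table.

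The fast light chains dominated in every mouse. Mylpf, the fast regulatory chain (ENSMUSG00000030672, GRCm38 chromosome 7 from 127208890 to 127214298), was at 6324 CPM in KO1, 5484 in KO2, 6253 in KO3, 7208 in KO4 and 7364 in KO5. In *Shank3(+/+)* it was at 5820.3 CPM in WT1, 6873 in WT2, 5245 in WT3 and 6865 in WT4. KO5 and KO4 were the highest and WT3 the lowest, and the groups overlapped. Means were 6647 ± 622 CPM (SD) for the 3 *Shank3Δ11(−/−)* mice of the smaller fit and 6201 ± 806 CPM (SD) for the 4 *Shank3(+/+)* mice. On the log2 scale the difference, *Shank3Δ11(−/−)* over *Shank3(+/+)* throughout, was 0.09 ± 0.14 (standard error), with p = 0.533 in edgeR and 0.514 in an exact permutation test, and in all 9 mice it was 0.07 ± 0.12 (p = 0.564 and 0.571).

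Myl1 encodes both fast alkali chains from alternative starts (ENSMUSG00000061816, chromosome 1 from 66924295 to 66945404). It was at 5856 CPM in KO1, 4936 in KO2, 5819.9 in KO3, 6348 in KO4 and 7062 in KO5, and at 5555 CPM in WT1, 6371 in WT2, 5014 in WT3 and 5587 in WT4. The order of the mice was close to that of Mylpf, with KO5 highest and KO2 and WT3 lowest, and the groups overlapped. Means of 6246 ± 707 CPM (SD, n = 3) and 5632 ± 558 CPM (SD, n = 4) differed by 0.14 ± 0.13 (log2, standard error; edgeR p = 0.316, exact permutation p = 0.286), and in 9 mice the value was 0.09 ± 0.12 (edgeR p = 0.458, exact permutation p = 0.460). Of the 50-base stretches of Myl1 exons, 11.7% also occur in the pseudogene Mylf-ps, so its count is less certain than that of Mylpf, which shares none.

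Myl4, the alkali chain of embryonic muscle and the atrium (ENSMUSG00000061086, chromosome 11 from 104550663 to 104595753), was at 625 CPM in KO1, 558 in KO2, 699 in KO3, 585 in KO4 and 567 in KO5. It was at 550.4 CPM in WT1, 695 in WT2, 589 in WT3 and 836 in WT4. WT4 stood above the other 8 mice, which lay between 550.4 and 699 CPM and were mixed by genotype. The log2 fold change was -0.09 ± 0.16 (standard error; edgeR p = 0.567, exact permutation p = 0.743) and turned to 0.040 without WT4. In 9 mice it was -0.14 ± 0.13 (edgeR p = 0.302, exact permutation p = 0.429). Of 8 heart markers, the atrial genes Nppa and Myl7 and also Nppb were below 1 CPM in all 9 mice. Tnni3 was at 1.66 to 4.02 CPM, Ryr2 at 0.423 to 2.24 CPM and Mybpc3 at 0.114 to 1.46 CPM, and Sln (379 to 634 CPM) and Myh6 (138 to 300.3 CPM), both of which skeletal muscle can also express, were higher. Of the 5 heart markers tested, Myh6 alone had an unadjusted p below 0.05 in the 7 mice (log2 fold change -0.64, edgeR p = 0.0141, exact permutation p = 0.0857), which it did not have in the 9 mice (-0.41, edgeR p = 0.0826, exact permutation p = 0.151).

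Of the slow chains, Myl3 and Myl6b were lowest in the same mice and Myl2 was not. Myl3, the slow and ventricular alkali chain (ENSMUSG00000059741, chromosome 9 from 110741861 to 110769798), was at 188 CPM in KO1, 209 in KO2, 222 in KO3, 248 in KO4 and 135 in KO5. The *Shank3(+/+)* mice were at 221 CPM (WT1), 247 (WT2), 227 (WT3) and 265 (WT4). KO5, KO1 and KO2 lay below every *Shank3(+/+)* mouse, whereas KO3 and KO4 lay within their range. In the 7 mice the mean was 182 ± 43.8 CPM (SD, n = 3) against 239.9 ± 20.0 CPM (SD, n = 4), and the fitted level was 24.7% lower. The log2 fold change was -0.41 ± 0.16 (standard error), with p = 0.0253 and FDR = 1.00 in edgeR and p = 0.0571 in an exact permutation test, whose smallest p with 3 and 4 mice is 0.0286.

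Myl6b, the alkali chain found in slow fibres (ENSMUSG00000039824, chromosome 10 from 128494157 to 128498685), was at 148 CPM in KO1, 169 in KO2, 219.9 in KO3, 244 in KO4 and 117 in KO5. It was at 182 CPM in WT1, 259 in WT2, 209 in WT3 and 276 in WT4. The same 3 mice, KO5, KO1 and KO2, were below all *Shank3(+/+)* mice. The 7 mice gave 162 ± 52.7 CPM (SD, n = 3) against 232 ± 43.6 CPM (SD, n = 4), and the fitted level was 30.6% lower. On the log2 scale this was -0.53 ± 0.22 (standard error), with p = 0.0334 and FDR = 1.00 in edgeR and p = 0.143 in the exact permutation test. Myl6b was the most variable member, with 2.36 times as much in the highest mouse as in the lowest.

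Neither difference passed once all 9 mice were used. The log2 fold change was then -0.26 for Myl3 (edgeR p = 0.105, exact permutation p = 0.127) and -0.37 for Myl6b (edgeR p = 0.0910, exact permutation p = 0.159). With each of the 7 mice left out in turn, the log2 fold change ranged from -0.58 to -0.24 for Myl3 and from -0.81 to -0.34 for Myl6b. Without KO3 it was furthest from 0 and the edgeR p fell to 0.00425 for Myl3 and to 0.00169 for Myl6b, whereas p rose to 0.107 for Myl3 and 0.138 for Myl6b in edgeR without KO5, to 0.0509 and 0.0767 without WT2, and to 0.0611 and 0.0922 without WT4, and for Myl6b to 0.104 without KO1. From the 9 mice, leaving out KO4 brought the edgeR p to 0.0310 for Myl3 and 0.0194 for Myl6b, and that of Myl6b fell to 0.0488 without KO3 and to 0.0469 without WT1. Over the 9 mice left out in turn, the log2 fold change ranged from -0.35 to -0.15 for Myl3 and from -0.51 to -0.25 for Myl6b. KO5, the lowest mouse for both genes, was also the mouse with the high adipocyte and Schwann cell markers. In it Adipoq was at 78.7 CPM against a median of 0.524 CPM over the 9 mice. KO1 and KO2 came next for Adipoq (9.02 and 2.82 CPM) and for the summed Schwann cell markers (199 and 179 CPM). The summed adipocyte markers were lowest in KO2 (186 CPM). In the 7 mice all 4 tested adipocyte genes and 3 of 4 Schwann cell genes were higher with an unadjusted edgeR p below 0.05. At this threshold 1.16% of all genes tested were higher. The exact permutation p was 0.200 for Adipoq and Plin1, 0.0571 for Cfd and 0.0286 for Fabp4. KO3 was at 0.157 CPM of Adipoq, within the *Shank3(+/+)* range (0.0296 to 1.71 CPM). The part of these genes in the result was not tested. Fewer slow fibres and less of these RNAs per fibre cannot be told apart in bulk tissue.

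Myl2, the slow and ventricular regulatory chain (ENSMUSG00000013936, chromosome 5 from 122100951 to 122113472), was at 160.1 CPM in KO1, 141 in KO2, 149.8 in KO3, 264 in KO4 and 211 in KO5. In *Shank3(+/+)* it was at 191 CPM (WT1), 206 (WT2), 148 (WT3) and 209 (WT4). KO4 was highest and KO5 second, so KO5, which was lowest for Myl3 and Myl6b, was among the high mice for Myl2. Its log2 fold change was -0.13 ± 0.16 (standard error; edgeR p = 0.436, exact permutation p = 0.571) in 7 mice and -0.02 ± 0.18 (edgeR p = 0.892, exact permutation p = 0.841) in 9.

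Myl6, the alkali chain of non-muscle and smooth muscle myosin (ENSMUSG00000090841, chromosome 10 from 128490860 to 128494145), lies 11 bases from Myl6b on the same strand. It was at 206 CPM in KO1, 201 in KO2, 223 in KO3, 279.9 in KO4 and 217 in KO5, and at 212 CPM in WT1, 229.6 in WT2, 215 in WT3 and 264 in WT4. KO4 and WT4 were high and the remaining 7 mice lay between 201 and 229.6 CPM. The genotypes differed by -0.10 ± 0.11 (log2, standard error; edgeR p = 0.379, exact permutation p = 0.429) in 7 mice and by -0.03 ± 0.11 (edgeR p = 0.806, exact permutation p = 0.722) in 9. Of its 50-base stretches 8.38% recur in pseudogenes such as Gm5526 and Gm10080.

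The kinases did not pass the test. Mylk2, the skeletal muscle light chain kinase (ENSMUSG00000027470, chromosome 2 from 152911352 to 152923068), was at 149 CPM in KO1, 139 in KO2, 137 in KO3, 139 in KO4 and 122 in KO5, and at 116 CPM in WT1, 133 in WT2, 119.9 in WT3 and 144 in WT4. It was the steadiest member, with 1.28 times as much in the highest mouse as in the lowest, and its log2 fold change was 0.08 (95% interval -0.18 to 0.33, edgeR p = 0.526, exact permutation p = 0.429) in 7 mice and 0.10 (edgeR p = 0.312, exact permutation p = 0.238) in 9. Mylk4, a further member of the kinase family (ENSMUSG00000044951, chromosome 13 from 32700834 to 32783954), was at 238 CPM in KO1, 279 in KO2, 211 in KO3, 172 in KO4 and 182 in KO5, and at 229 CPM in WT1, 242 in WT2, 316 in WT3 and 223 in WT4. WT3 and KO2 were the highest mice and KO4 and KO5 the lowest. Its log2 fold change was -0.27 (95% interval -0.59 to 0.05, edgeR p = 0.0881, exact permutation p = 0.200) in 7 mice and -0.22 (edgeR p = 0.166, exact permutation p = 0.198) in 9, and without KO2 the edgeR p of the latter fit was 0.0329.

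**Figure D1:**
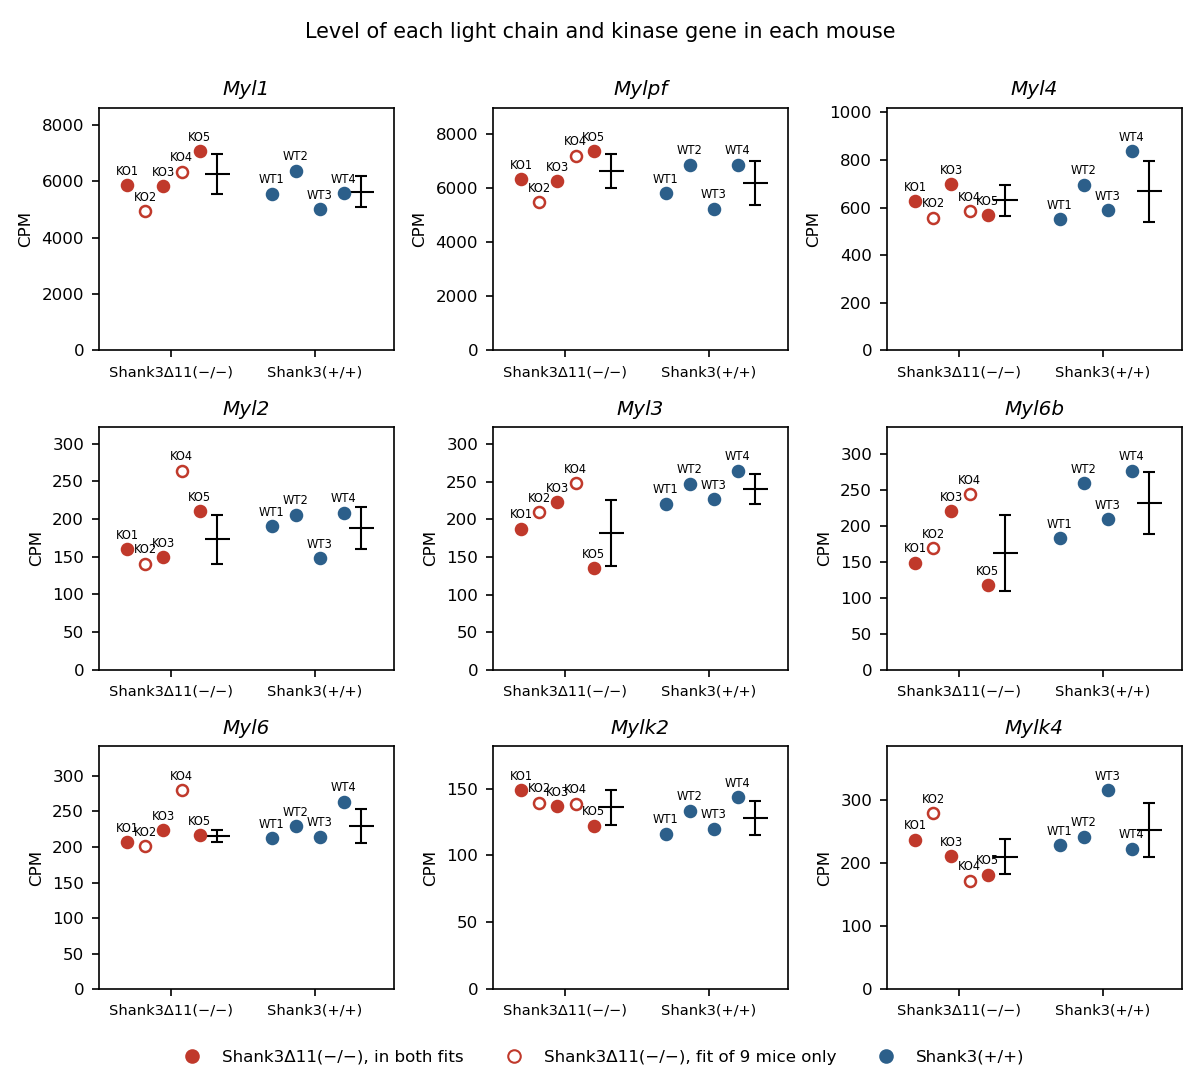
Level in CPM (linear axes from 0) of each member in each mouse, red for Shank3Δ11(−/−) and blue for Shank3(+/+), with open symbols for KO2 and KO4. Black bars give mean ± SD of the 3 filled Shank3Δ11(−/−) mice and of the 4 Shank3(+/+) mice, and Myl3 and Myl6b were lowest in KO5 and next lowest in KO1.

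Counted over the members, 2 of 9 had an unadjusted edgeR p below 0.05 in the 7 mice, Myl3 and Myl6b, both lower in *Shank3Δ11(−/−)*. Over all 21809 genes tested the share was 2.08%, of which 0.917% lower and 1.16% higher. These 453 genes became 224 to 968 with 1 mouse left out. In the 9 mice the count was 0 of 9, against 2.03% of 21735 genes (0.874% lower and 1.16% higher). In edgeR no member and no gene passed the study's criterion of p below 0.05 with FDR below 25%. The share of all genes was thus 0% in both fits. The paper used limma and reports differentially expressed genes at these thresholds, so the 0% holds for edgeR here. The lowest FDR of any gene was 0.881 in 7 mice and 1.00 in 9. No member had groups without overlap, as 2.84% of genes had in 7 mice and 0.686% in 9. Myl1, Mylpf and Mylk2 had positive log2 fold changes and the other 6 members negative ones in both fits, and the median over members was -0.10 in 7 mice and -0.03 in 9, beside -0.01 and 0.00 over all genes tested.

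**Figure D2:**
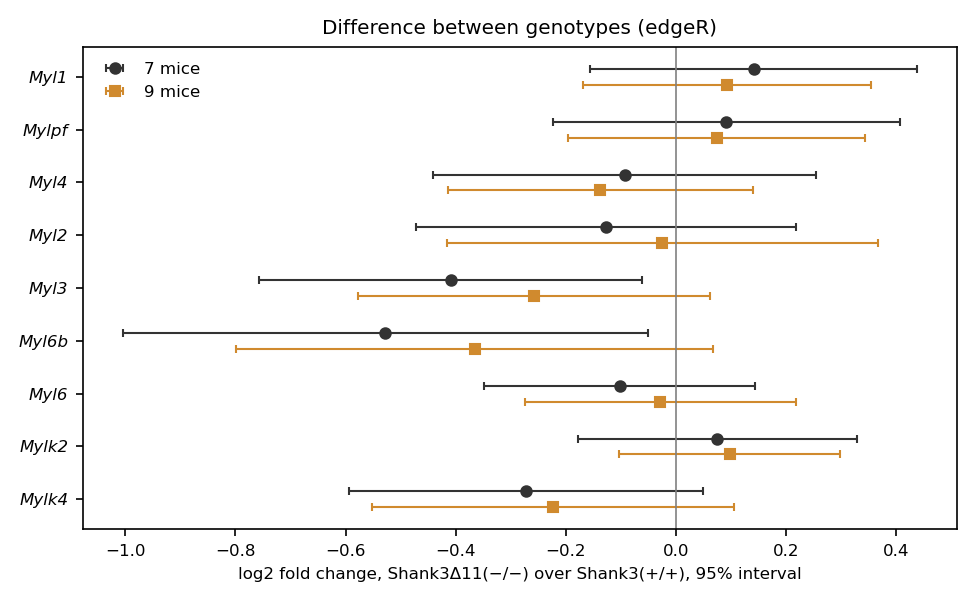
log2 fold change of each member with its 95% interval in edgeR, for 7 mice (black circles) and 9 mice (orange squares), where values below 0 are lower in Shank3Δ11(−/−). The intervals of Myl3 and Myl6b exclude 0 in 7 mice and include it in 9, and those of the other 7 members include 0 in both.

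Levels of different genes were compared per length of exon. Over all annotated exons, Mylpf had a median of 5955 CPM per kb over the 9 mice and Myl1 2806 CPM per kb. Their ranges did not overlap with each other or with any other member. The embryonic and slow alkali chains followed, with Myl4 at 127 (range 119 to 180.2), Myl6b at 113 (63.4 to 149.6) and Myl3 at 109 CPM per kb (66.2 to 129). Myl2 was at 97.9 CPM per kb (72.2 to 135). These 4 neighbours overlapped, so their order did not hold in every mouse. Myl6 was at 68.0 CPM per kb and below Myl2 in all 9 mice, although their ranges overlapped. Mylk2 was at 46.4 and Mylk4 at 29.7 CPM per kb, again with overlapping ranges.

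The length chosen decided part of the order. Annotated exons of Myl4 span 4637 bases, but its transcript with the longest coding sequence has 943, and for Mylk4 these are 7689 and 1541 bases. Per kb of that transcript, Myl4 was at 624 CPM, Myl6 came next at 313, and Mylk4 (148) stood above Mylk2 (46.4) in all 9 mice. Mylpf (8256) and Myl1 (5379) kept their places ahead of Myl4 with each of the 3 lengths tried.

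**Figure D3:**
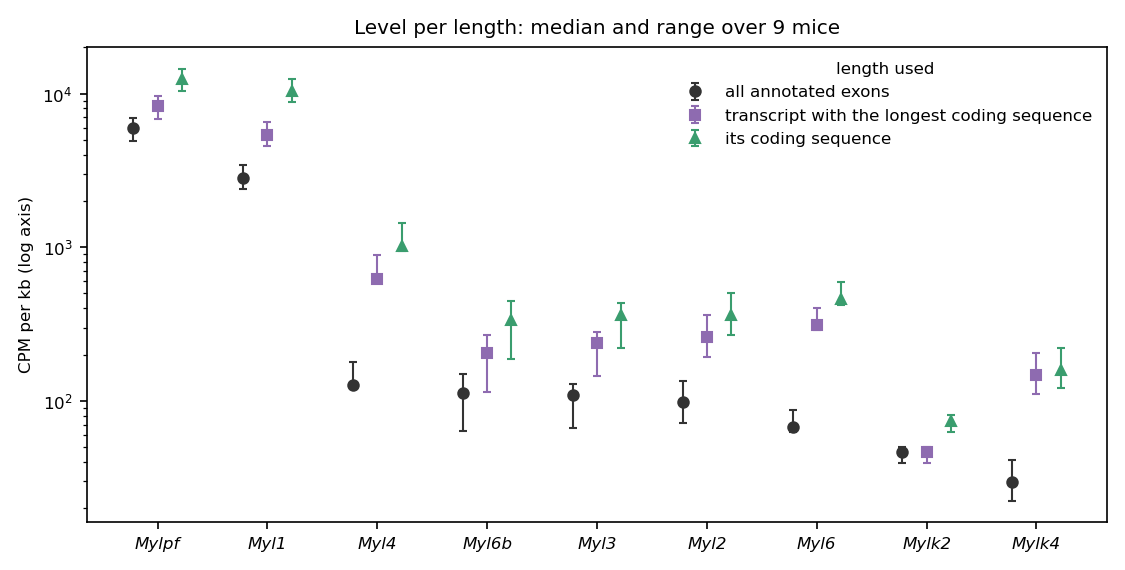
Median (symbol) and range (bar) over 9 mice of CPM per kb on a log axis, by the length used. Mylpf and Myl1 lead at every length, and Myl4, Myl6 and Mylk4 move most between lengths.

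As a share of the regulatory chains per kb of annotated exon, Myl2 made 1.36% in KO1, 1.38% in KO2, 1.29% in KO3, 1.96% in KO4 and 1.53% in KO5. In *Shank3(+/+)* it made 1.75%, 1.61%, 1.51% and 1.63% in WT1 to WT4. Newborn gastrocnemius thus held nearly all of its sarcomeric regulatory chain RNA as the fast form, and the genotypes overlapped. Among Myl1, Myl3, Myl4 and Myl6b, the share of Myl1 was lowest in WT4 (85.4%) and highest in KO5 (93.1%). The share of Myl3 was 1.81% in KO5 and 2.93% to 4.10% in the other mice, and that of Myl6b was 1.73% in KO5, 2.57% in KO1 and 3.29% to 4.74% in the rest. Myl4, the embryonic form, made 3.34% (KO5) to 5.72% (WT4) per kb of annotated exon, but 8.13% to 13.4% per kb of the transcript and 7.03% to 11.8% per kb of coding sequence.

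Members were compared by how they varied over the mice. For each of the 36 pairs, Pearson's r and Spearman's rank coefficient of log2 CPM over the 9 mice were tested with an exact permutation test and adjusted over the pairs. The closest pair was Myl3 and Myl6b, with r = 0.95 (permutation p = 1.65e-05, adjusted p = 5.95e-04) and rank coefficient = 0.97 (permutation p = 1.65e-04, adjusted p = 0.00595). The value was r = 0.95 without KO5 and WT4, the mice farthest from the median of Myl3, and 0.93 as deviations from the genotype means. Leaving out any 1 mouse gave r from 0.94 to 0.97. Myl3 and Myl6b thus went together both within and across genotypes.

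The fast pair Myl1 and Mylpf had r = 0.90 (permutation p = 9.40e-04, adjusted p = 0.0169) and rank coefficient = 0.92 (permutation p = 0.00131, adjusted p = 0.0236), and r = 0.86 without KO2 and KO5. Its adjusted permutation p was 0.0777 without KO2, 0.0524 without KO5 and 0.0732 without WT3. Myl2, the slow regulatory chain, passed 0.05 after adjustment with the fast regulatory chain Mylpf by rank but not by r (r = 0.81, permutation p = 0.00961, adjusted p = 0.0577; rank coefficient = 0.90, permutation p = 0.00203, adjusted p = 0.0243), and r was 0.80 without KO5 and WT3. With its slow alkali partner Myl3 it had r = 0.12 (permutation p = 0.777, adjusted p = 0.933; rank coefficient = 0.30, permutation p = 0.437). That value turned to -0.083 without KO4 and to -0.10 without KO2 and KO4, but was 0.68 without KO5 (permutation p = 0.0634, adjusted p = 0.176). Without KO5, r of Myl2 and Myl6b was 0.61 (permutation p = 0.107, adjusted p = 0.257), from 0.26 with all mice. With Myl6, the alkali chain of non-muscle and smooth muscle, Myl2 had r = 0.78 (permutation p = 0.00710, adjusted p = 0.0543; rank coefficient = 0.73, permutation p = 0.0311, adjusted p = 0.124). That r was 0.48 without KO2 and KO4 and 0.78 as deviations from the genotype means (adjusted permutation p = 0.0459). It was 0.92 relative to the mean of the skeletal muscle list (adjusted permutation p = 0.00615). With the trend in transcript length subtracted it was 0.53 (adjusted permutation p = 0.392). Subtracting the same list mean from both genes can move r by itself, and the permutation does not allow for this. Deviations were permuted across genotypes after each genotype mean was removed, so their permutation p is approximate.

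Mylk4 had negative values with Mylpf, Myl1 and Myl2, of which only r with Mylpf passed 0.05 after adjustment, and no rank coefficient did. These were r = -0.86 to Mylpf (permutation p = 0.00289, adjusted p = 0.0347; rank coefficient = -0.73, permutation p = 0.0311, adjusted p = 0.124) and r = -0.82 to Myl1 (permutation p = 0.00755, adjusted p = 0.0543; rank coefficient = -0.60, permutation p = 0.0968, adjusted p = 0.268). Without the 2 farthest mice these were -0.70 and -0.73. With Myl2 it had r = -0.76 (permutation p = 0.0195, adjusted p = 0.101; rank coefficient = -0.77, permutation p = 0.0214, adjusted p = 0.124), -0.53 without the 2 farthest mice, and -0.89 as deviations from the genotype means (adjusted permutation p = 0.00856). The last p is approximate, because the genotype means were removed before the permutation. The adjusted permutation p of Mylpf and Mylk4 lay above 0.05, between 0.0658 and 0.175, without KO1, KO2, KO4, KO5, WT3 or WT4. Mylk2 had r = 0.28 to Mylpf (permutation p = 0.462, adjusted p = 0.768; rank coefficient = 0.17, permutation p = 0.678; r = 0.32 without the 2 farthest mice). Relative to the mean of the skeletal muscle list, r of Mylk2 was 0.66 to Mylpf (permutation p = 0.0493, adjusted p = 0.161), 0.55 to Myl1 (permutation p = 0.126, adjusted p = 0.284), and -0.67 to Mylk4 (permutation p = 0.0451, adjusted p = 0.161), from 0.28, -0.0090 and -0.13 before. On that scale r of Mylpf and Mylk4 was -0.73 (adjusted permutation p = 0.143). Values on that scale share a subtracted mean, which can move r by itself. In all, 3 of 36 pairs had an adjusted p of r below 0.05, and 3 of 36 by rank. Both sets held Myl3 with Myl6b and Myl1 with Mylpf, and the third pair was Mylpf with Mylk4 by r and Mylpf with Myl2 by rank.

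The libraries also differed in a trend with transcript length. Over 15100 protein-coding genes, log2 CPM relative to the mean of the mice changed with each doubling of transcript length by 0.071 in KO2, 0.050 in WT3, 0.049 in WT1 and 0.038 in KO1, and by -0.090 in WT4, -0.061 in KO4, -0.035 in KO5, -0.019 in KO3 and -0.0040 in WT2. WT3 and KO2, which were low for the short fast chains and high for Mylk4, had positive slopes. So did WT1 and KO1, whose Mylk4 levels (229 and 238 CPM) lay near its median of 229 CPM. The part of this trend in the relation of Mylk4 to the fast chains was not settled. With this trend subtracted, r was 0.91 for Myl3 and Myl6b (adjusted permutation p = 0.0270) and 0.90 for Myl1 and Mylpf (adjusted permutation p = 0.0270), but 0.63 for Mylpf and Myl2 (adjusted permutation p = 0.360) and -0.68 for Mylpf and Mylk4 (adjusted permutation p = 0.339). The log2 difference in the 7 mice with the trend subtracted was -0.44 for Myl3 (exact permutation p = 0.0286, the smallest possible) and -0.56 for Myl6b (exact permutation p = 0.0857), and in the 9 mice -0.29 (exact permutation p = 0.0635) and -0.40 (exact permutation p = 0.119).

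**Figure D4:**
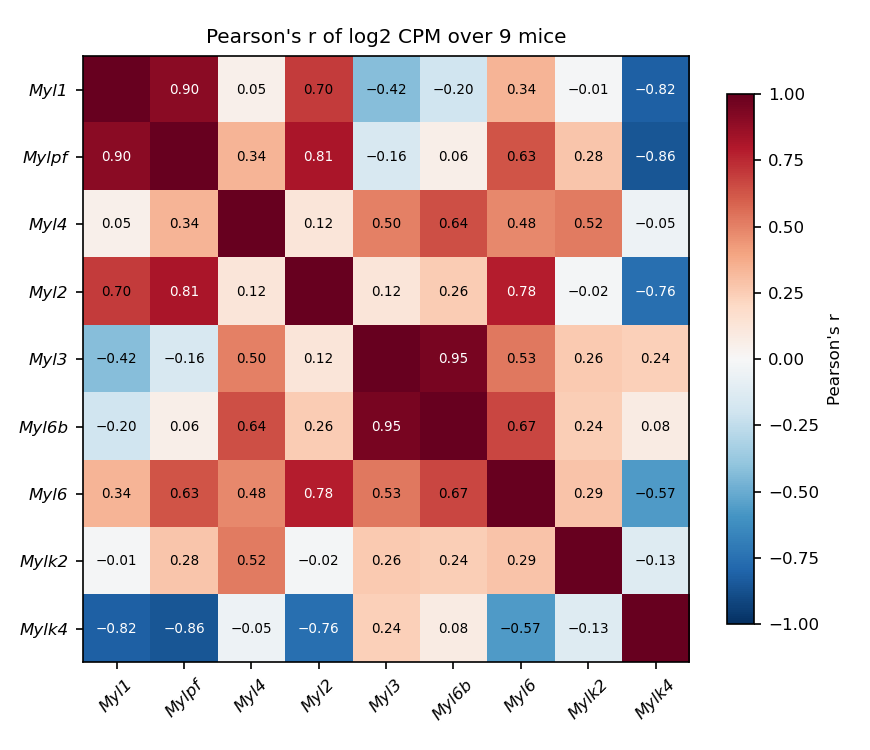
Pearson's r of log2 CPM over 9 mice for each pair of members, red for positive and blue for negative values. Myl1 with Mylpf (0.90) and Myl3 with Myl6b (0.95) form separate pairs, and the row of Mylk4 is blue against Myl1, Mylpf and Myl2.

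**Figure D5:**
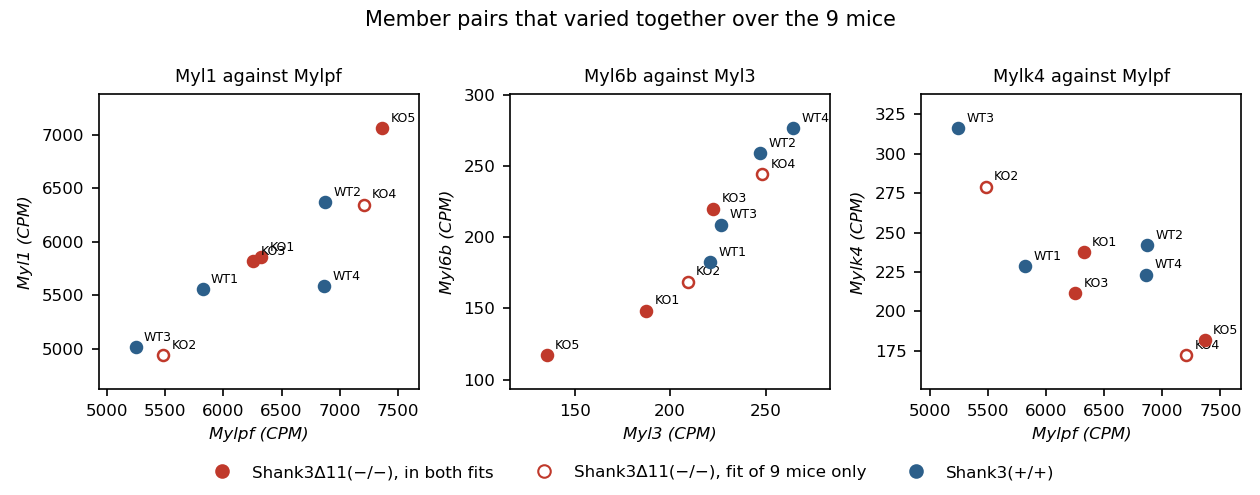
CPM of the 3 pairs with an adjusted p of r below 0.05, chosen by r and not by rank, 1 point per mouse, on linear axes that do not start at 0. Myl6b rises with Myl3 from KO5 to WT4 with KO5, KO1 and KO2 below and the genotypes mixed above them, and Mylk4 falls as Mylpf rises (adjusted p = 0.124 by rank in the permutation test).

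The genes most like each member were sought among 17975 others with a mean of at least 1 CPM, by r over the 9 mice, as a description. For Myl6b they were Tnnt1 (r = 0.98) and Tnni1 (r = 0.96), the slow skeletal troponins T and I. For Mylpf they were Mrpl30 (r = 0.98) and Tnni2 (r = 0.98), the latter the fast skeletal troponin I. Myl3 was most like Saxo2 (r = 0.98) and Dlk2 (r = 0.96), and Myl1 like Psmb1 (r = 0.97) and Esrp2 (r = 0.96). The nearest to Myl2 were Ccdc12 and Cd9 (r = 0.95 and 0.93), to Myl4 Pef1 and Hspb2 (0.98 and 0.94), to Myl6 Mydgf and Ier2 (0.99 and 0.97), to Mylk2 Rab5if and St6galnac6 (0.88 and 0.87) and to Mylk4 Dclk1 and Fam206a (0.97 and 0.97). Genes of 1 library share its total and its length trend.

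Genes of slow and fast fibres were set beside the light chains. Of 8 slow fibre genes, all 8 had negative log2 fold changes (median -0.29 in 7 mice and -0.24 in 9), and 2 had p below 0.05 in edgeR in 7 mice, the slow troponins Tnnt1 (-0.34, p = 0.0457, exact permutation p = 0.114) and Tnnc1 (-0.43, p = 0.0261, exact permutation p = 0.0571). In 9 mice Tnnc1 alone had p below 0.05 (-0.36, edgeR p = 0.0263, exact permutation p = 0.0635). Over all genes tested, 0.917% were lower at this threshold in 7 mice and 0.874% in 9. The list summed to 3183 CPM in KO5 and 4297 to 5468 CPM in the other mice. Of 8 fast fibre genes, all 8 had positive values (median 0.09 in 7 mice), with p below 0.05 in edgeR for Actn3, the fast fibre actinin (0.62, p = 0.0413, exact permutation p = 0.143), and Pvalb, a calcium buffer of fast fibres (1.23, p = 0.0331, exact permutation p = 0.114). At this threshold 1.16% of all genes were higher in each fit. Actn3 was at 716 CPM in KO5, 448 in KO1 and 415 in KO3. Pvalb was at 103 CPM in KO5, 25.3 in KO1 and 47.7 in KO3. In 9 mice all 8 again had positive values (median 0.047), and the same 2 genes had p below 0.05 in edgeR, Actn3 (0.50, p = 0.0455, exact permutation p = 0.103) and Pvalb (1.37, p = 0.0273, exact permutation p = 0.111). The fast list summed to 17411 CPM in KO5 and 13929 to 15952 CPM in the others. These 4 genes were named after their values were seen, and none passed FDR.

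Of 10 listed heavy chain genes, 7 sarcomeric and Myh9, Myh10 and Myh11 of non-muscle and smooth muscle, none had p below 0.05 in edgeR in either fit. Myh6, the alpha heavy chain listed with the heart markers, is not among them and had p below 0.05 in the 7 mice, as given with Myl4. In 7 mice 3 of the 10 had positive and 7 negative values (median -0.11). Myh8, the neonatal heavy chain, was the most abundant with 13569 to 19521 CPM, and Myh3, the embryonic one, was at 2095 CPM in KO5 and 4174 to 5787 CPM in the others. Myh7b, a slow-type heavy chain gene, had the largest difference of the 10, -0.63 (standard error 0.28, edgeR p = 0.0519, exact permutation p = 0.114) in 7 mice and -0.37 (edgeR p = 0.175, exact permutation p = 0.294) in 9. In 7 mice the value of Myh7, the slow and ventricular heavy chain, was -0.48 (standard error 0.26, edgeR p = 0.0968, exact permutation p = 0.200), and that of Myh3 -0.43 (standard error 0.26, edgeR p = 0.129, exact permutation p = 0.200). In 9 mice these were -0.31 (edgeR p = 0.191, exact permutation p = 0.278) and -0.33 (edgeR p = 0.134, exact permutation p = 0.214). These 4 were named after their values were seen.

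The other genes of light chain phosphorylation also gave no call. Of 22 such genes (with other light chains and kinases, the myosin phosphatase, its inhibitors and calmodulins among them), 21 were tested and 0 had p below 0.05 in edgeR in either fit. Myl7, the atrial regulatory chain, was the 1 not tested. In the 7 mice 12 had positive and 9 negative values with a median of 0.00, and in the 9 mice 13 and 8 with a median of 0.03. Their summed level lay between 2684 and 3037 CPM over the 9 mice.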

How the data were processed

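RNA-seq of 9 gastrocnemius muscles was analysed, 1 library per mouse. The counts are as deposited: per the paper's methods and the submitters' processing notes, the authors mapped reads with HISAT2 to mm10 (GRCm38) and counted them per gene with featureCounts, without normalization. Neither the annotation release, nor the strand setting, nor the treatment of multi-mapped reads is stated in the sources read, and overlapping genes on opposite strands (Pth1r with Myl3, Ccdc63 with Myl2, Gm27342 with Mylk4 and 4 Gm genes with Myl4) may share reads.

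Genes were filtered with filterByExpr (minimum count 10, minimum total 15), scaled by TMM and tested with the robust quasi-likelihood test of edgeR 4.0.16 (R 4.3.3), 2-sided, with Benjamini-Hochberg adjustment over all genes tested (FDR). The exact permutation test compared mean log2 CPM (prior count 2), 2-sided. With 5 and 4 mice it can reach 0.00794. p-values measure the spread between mice. The depth of each member was at least 3082 counts per library. Lengths, positions and the shared 50-base stretches came from GENCODE M21 (GRCm38), and upstream sequences from RefSeq, where 8 of the 9 members matched. Alternatives were other filters and normalizations, DESeq2 1.42.0, limma 3.58.1, a block for the replicate number, Y-linked genes as a covariate, each mouse left out in turn and, added after seeing the data, removal of the length trend and the last tools in all 9 mice. Tests were checked on simulated data. All members were named; of each list, genes with p below 0.05; and for each member the 2 genes of highest r, passing over Gm and Rik symbols. Members and lists were chosen with earlier results of these data known. Figures were drawn with matplotlib.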

Additional observations from a re-analysis of the deposited data

Results flagged for a closer look

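Among the 18 groups examined, 9 members in each genotype, 1 held a mouse far from the others. Myl6 was at 279.9 CPM in KO4, and the gap to the next *Shank3Δ11(−/−)* mouse took 0.712 of the range of the 5 mice, against a critical value of 0.71. By chance about 1 in 20 groups would be picked out. KO4 also had the highest cartilage marker level (232 CPM) and mitochondrial share (7.88%), whose part in this value was not tested.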

How the results depend on the processing

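The count of members with unadjusted p below 0.05 in edgeR was 2 in 7 mice. It was 0 with all 9 mice, 0 to 2 with 1 mouse left out, and 1 with the replicate block (Mylk2, 0.27 on the log2 scale). In 9 mice it was 0, and 0 to 2 with 1 mouse left out. In the 7 mice only numbers 1 and 3 occur in both genotypes. The block there thus compared KO1 and KO3 with WT1 and WT3 only, and KO5, WT2 and WT4 did not contribute to the difference. Under this replicate block the log2 fold change was -0.14 for Myl3 and -0.11 for Myl6b, neither with p below 0.05. Myl4 turned to 0.21 and Myl6 to 0.0057. In their deviations from the group means the same-numbered mice correlated at 0.37, 0.052, 0.36 and 0.10 and the others at -0.44 to 0.28. KO1, KO3 and KO4 correlated best with their own number, and KO2, WT2 and WT4 did not (WT4 had 0.28 with KO3), which is at most a hint from the data. No label gives the numbers a meaning and 1 of the 4 pairs was under 0.1, so the block was kept as an alternative. With 1 mouse left out, Myl4 ranged from -0.17 to 0.040 in 7 mice, and Myl2 from -0.19 to 0.059 and Myl6 from -0.12 to 0.044 in 9 mice. Of the member fold changes, 186 of 189 alternative values in 7 mice and 118 of 126 in 9 kept their sign, and no member reached FDR below 25% in any. Over all genes, the criterion called 6 genes in DESeq2 in 7 mice, 9 under the replicate block, 1 with no filter on low counts, 1 with Y-linked genes as a covariate and up to 15 with 1 mouse left out. In 9 mice DESeq2 called 7 and the block 2. In 7 mice both Myl3 and Myl6b had an unadjusted p below 0.05 with the other filters and normalizations, DESeq2, limma and the Y-linked covariate. The pairs of members with adjusted permutation p of r below 0.05 numbered 1 to 4 with 1 mouse left out. They numbered 7 as deviations from the genotype means, where that p is approximate. r of Mylk2 and Mylk4 turned to 0.076 as such deviations, was -0.67 relative to the skeletal muscle list and ranged from -0.35 to 0.23 with 1 mouse left out, and r of Myl2 and Myl3 turned to -0.074 with the length trend removed and ranged from -0.083 (without KO4) to 0.68 (without KO5). The mean share of Myl2 was 1.39% in *Shank3Δ11(−/−)* and 1.63% in *Shank3(+/+)* by annotated exons, 2.66% and 3.09% by transcript length, and 2.43% and 2.83% by coding length. That of Myl4 was 4.13% and 4.64%, 9.91% and 11.1%, and 8.63% and 9.67%. The shares changed with the length by construction, and the cause of the other changes was not tested.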
